A study of Mus musculus with 653 samples.

Results

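The apolipoprotein genes described here are *Apoa1*, *Apoa2*, *Apoa4*, *Apob*, *Apoc1*, *Apoc2*, *Apoe*, *Apoh* and *Apom*, which were chosen by name and are 9 of the 54195 genes of the count table. Their reads were followed across single mouse liver cells, each of which is 1 sample, in 4 groups set by embryonic day and sort, and across lineages set by reads of *Afp*, *Klf1* and *Pdgfra*. All cells came from embryos sired by *Lgr5-EGFP-IRES-creERT2* males on a C57BL/6 background with MF1 females, so every group shares this cross, and GFP reports the activity of the *Lgr5* locus. At E10.5 there were 414 cells, of which 49.03% were bulk and 50.97% Lgr5-GFP+, and at E13.5 there were 239, of which 66.5% were bulk and 33.5% (80 cells) Lgr5-GFP+. According to the study's methods, bulk cells were sorted as Liv2+ CD31- CD45-, and the Lgr5-GFP+ cells were also gated on GFP. Livers were digested for longer at E13.5 than at E10.5, and the labels name no animal, litter or sort for a cell. Each group was therefore treated as 1 sample. No test between groups was possible, and differences are given with counting intervals, the spread over cells and the spread over 5 library pools.

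Apolipoproteins are the protein part of lipoproteins, the particles that carry lipids in blood. Apolipoprotein B forms the scaffold of particles secreted with triglyceride, apolipoproteins A-I and A-II are the main proteins of high-density lipoprotein, and apolipoprotein E is a ligand for lipoprotein receptors. The small C apolipoproteins modulate lipases and receptor uptake, apolipoprotein M carries sphingosine 1-phosphate, and apolipoprotein H is a phospholipid-binding plasma protein. The liver is the main source of most of them, and macrophages are a known extrahepatic source of apolipoprotein E. In the fetal liver, hepatoblasts are the precursors of hepatocytes and cholangiocytes, and they express *Afp* and *Alb*.

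In the GRCm38 build, *Apoa1* (chr9:46228580-46230466) and *Apoa4* (chr9:46240696-46243459) lie with *Apoc3* and *Apoa5* in a cluster that spans 43.3 kb. *Apoe* (chr7:19696109-19699188), *Apoc1* (chr7:19689481-19692660) and *Apoc2* (chr7:19671579-19677941) lie with *Apoc4* in a cluster of 27.6 kb. *Apoa2* (chr1:171225054-171226379), *Apob* (chr12:7977648-8016835), *Apoh* (chr11:108343354-108414396) and *Apom* (chr17:35128997-35132050) lie apart from these.

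RefSeq promoter sequences (GRCm38.p6) were found for 8 of the 9 genes. The 250 bases before the start site were searched on both strands for TGTTTAC or TATTTAC (FOXA), CAAAGTCCA or CAAGGTCA (HNF4 and related receptors) and TTGCNNAA (C/EBP), and on the sense strand for TATAAA. A FOXA match was present in 2 of 8 members, *Apoa2* and *Apoh*, against 5.76% of all 32851 promoters. The C/EBP letters were found only in *Apob* among the 8 and in 9.56% of all promoters, and TATAAA was found in *Apoa2* and *Apob* and in 7.59% of all promoters. The HNF4 letters were in 0 of the 8 windows and in 1.71% of all promoters, which says only that these letters are not in these windows. The 150 bases before the start are shown for *Apoa2* (chr1:171224904-171225053, plus strand), *Apom* (chr17:35131802-35131951, minus strand) and *Apob* (chr12:7977527-7977676, plus strand), whose reads were almost all in 1 lineage, and for *Apoe* (chr7:19699189-19699338, minus strand), whose reads were not. Capitals mark the matches, which in *Apoa2* are the FOXA letters at bases 77 to 71 before the start and in *Apob* the C/EBP letters (bases 90 to 83) and TATAAA (bases 60 to 55). The TATAAA of *Apoa2*, which begins 212 bases before the start, lies outside the stretch shown. The starts are those of RefSeq, and for *Apom* and *Apob* they lie inside the GENCODE spans given above. A match is a description of letters and was not tested for binding.
Apoa2: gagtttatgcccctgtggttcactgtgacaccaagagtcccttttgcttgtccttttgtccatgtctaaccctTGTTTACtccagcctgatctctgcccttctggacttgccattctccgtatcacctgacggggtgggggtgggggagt
Apom: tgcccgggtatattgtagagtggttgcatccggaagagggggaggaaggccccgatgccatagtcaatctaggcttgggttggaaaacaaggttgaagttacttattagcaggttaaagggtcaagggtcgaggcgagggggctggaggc
Apob: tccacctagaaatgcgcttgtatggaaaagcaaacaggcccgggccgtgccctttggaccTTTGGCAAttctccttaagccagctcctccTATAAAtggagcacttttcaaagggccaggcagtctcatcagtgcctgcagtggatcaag
Apoe: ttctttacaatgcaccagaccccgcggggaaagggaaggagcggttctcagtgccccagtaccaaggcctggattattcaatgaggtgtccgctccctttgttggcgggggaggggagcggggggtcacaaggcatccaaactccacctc

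A cell was placed in a lineage when exactly 1 of *Afp* (hepatoblast), *Klf1* (erythroid) and *Pdgfra* (mesenchymal) had more than 10 reads. This gave 61 Afp-only, 160 Klf1-only and 150 Pdgfra-only cells, 272 unmarked cells with none of the 3 markers and 10 cells with several. The Afp-only cells came mostly from 1 group: 53 were E10.5 Lgr5-GFP+, 6 were E10.5 bulk, 2 were E13.5 Lgr5-GFP+ and 0 were E13.5 bulk. Just above the threshold, cells had 22, 75 and 80 *Afp* reads, and just below it 8, 5 and 5. The hepatoblast marker list, which includes *Afp*, was at 10 RPM (reads per 1000000 reads on all genes, summed over cells) or more for 10 of 10 genes in the Afp-only cells, 0 of 10 in Klf1-only, 4 of 10 in Pdgfra-only (557 RPM in sum) and 7 of 10 in unmarked cells (498 RPM in sum). At least 4-fold higher levels in the Afp-only cells were found for 10 of these genes against Klf1-only cells (17.2% of all genes). Against Pdgfra-only cells, 7 were higher (7.18% of all genes). The call of *Afp* was fixed in advance, since *Afp* set the lineage. Over single cells, the summed level of the hepatoblast list ranged from 592 to 16174 RPM in the Afp-only cells. The leukocyte list reached 234 RPM in the Afp-only cells (median cell 1.44, highest 13994), at 10 RPM or more for 5 of 8 genes, and 1 E13.5 cell with 6647 *C1qb* reads stood apart. Without that cell, *Apoe* was at 6390 RPM in the Afp-only cells instead of 6404 RPM, and *Apoc1* at 319 instead of 317 RPM. The mesenchymal list was at 359 RPM (median cell 14.4, highest 20299), against 4993 RPM in Pdgfra-only cells. The erythroid list was at 151.3 RPM (median cell 24.1, highest 1181), of which *Tfrc* held 110.8 RPM, against 5774 RPM in Klf1-only cells. The endothelial list was at 6.05 RPM, and the part of these lists in the results was not tested. Reads per cell had a median of 1256109 in Afp-only cells (567698 to 1956394) and of 1094182, 1186198 and 1236029 in Klf1-only, Pdgfra-only and unmarked cells.

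The genes of high-density lipoprotein and *Apom* were concentrated in the Afp-only cells. *Apoa2* was at 7237 RPM in these 61 cells, against 0.786 RPM in Klf1-only and 4.21 RPM in Pdgfra-only cells. Single Afp-only cells ranged from 0 to 14716 RPM (median 7638), and 58 of 61 had more than 10 *Apoa2* reads (95.1%, exact binomial 95% interval 86.3 to 98.97). More than 10 reads were found in 1 of 160 Klf1-only and 16 of 150 Pdgfra-only cells, whose highest cells were at 17.5 and 311 RPM, so the lineages overlapped only through the lowest Afp-only cells.

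*Apoa1*, the other main protein of high-density lipoprotein, was at 1591 RPM in the Afp-only cells (exact Poisson 95% interval 1582 to 1600). It was at 3.59 RPM (3.32 to 3.88) in Klf1-only and 1.65 RPM (1.47 to 1.85) in Pdgfra-only cells. Its single-cell level in the Afp-only cells ran from 0 to 5806 RPM with a median of 1316, and 51 of 61 cells (83.6%, 71.9 to 91.8) had more than 10 reads. *Apom*, the sphingosine 1-phosphate carrier, was at 3312 RPM in Afp-only, 0.273 RPM in Klf1-only and 3.58 RPM in Pdgfra-only cells. It had more than 10 reads in 57 of 61 Afp-only cells (93.4%), whose median was 3197 RPM (0 to 7225), in 0 of 160 Klf1-only cells and in 7 of 150 Pdgfra-only cells.

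*Apob* was lower and split the Afp-only cells. Its summed level was 92.4 RPM (90.3 to 94.6), but 35 of the 61 cells had 0 *Apob* reads, 4 had 1 to 10 and 22 had more than 10 (36.1%, 24.2 to 49.4). In those 22 cells the level ran from 35.2 to 1083 RPM with a median of 252 RPM. The Klf1-only cells held 3 *Apob* reads and the Pdgfra-only cells 14, and in neither lineage did a cell exceed 10 reads.

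Of the 6 members at 10 RPM or more in the Afp-only cells, *Apoe* had the smallest share of its reads there. It was at 6404 RPM there (6386 to 6422) and had more than 10 reads in 61 of 61 cells, whose levels ran from 14.5 to 12511 RPM with a median of 6162. It was also at 459 RPM in Klf1-only, 191.3 RPM in Pdgfra-only and 725 RPM in unmarked cells. More than 10 *Apoe* reads were found in 55.6% of Klf1-only, 39.3% of Pdgfra-only and 45.6% of unmarked cells, and their highest cells (4897, 3933 and 15704 RPM) overlapped the Afp-only range. *Apoc1*, its neighbour on chromosome 7, was at 317 RPM in Afp-only cells (0 to 1605, median 207.2), 8.49 RPM in Klf1-only, 0.787 RPM in Pdgfra-only and 27.9 RPM in unmarked cells. More than 10 *Apoc1* reads were found in 46 of 61 Afp-only cells (75.4%) and in 20 of 160 Klf1-only cells (12.5%). The Afp-only cells held 95.6% of all *Apom* reads of the series, 94.6% of *Apoa2*, 93.97% of *Apoa1* and 94.03% of *Apob*, but 65.8% of *Apoc1* and 56.5% of *Apoe*.

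**Figure D1:**
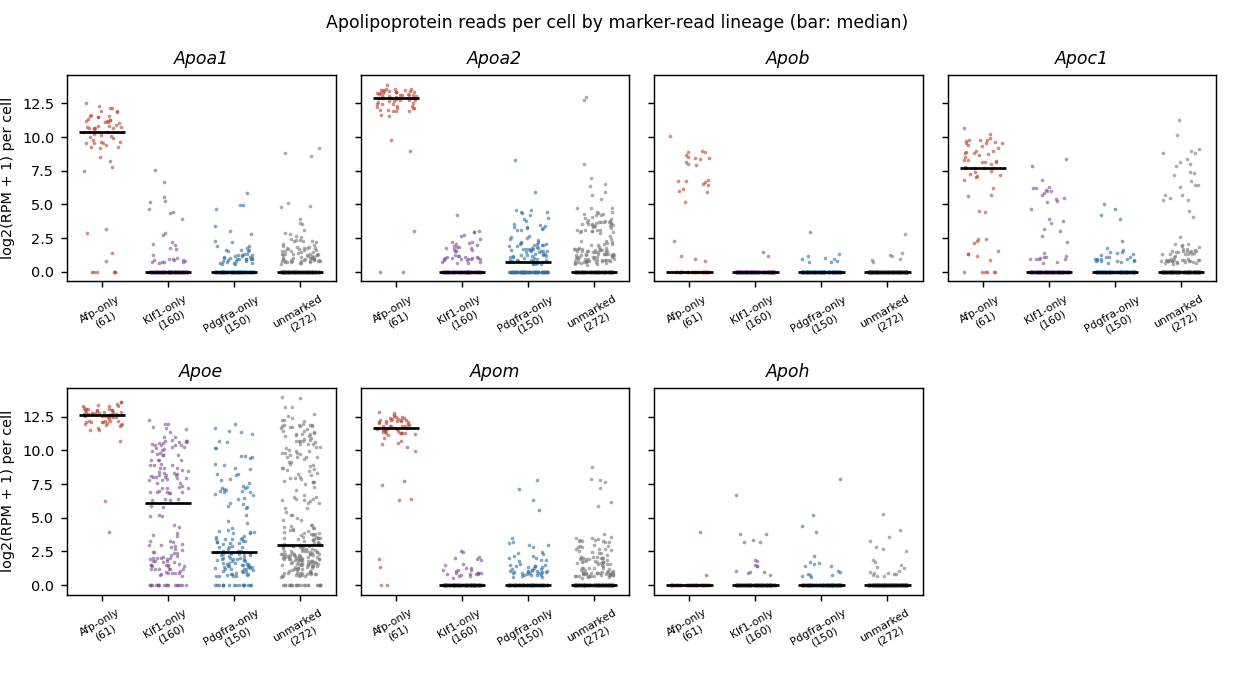
Level of 7 apolipoprotein genes in each cell, as log2(RPM + 1) on the vertical axis, for the 61 Afp-only, 160 Klf1-only, 150 Pdgfra-only and 272 unmarked cells (each point a cell, each bar the median). *Apoa1*, *Apoa2* and *Apom* stand high in the Afp-only cells, *Apoe* is spread through every lineage, *Apob* splits the Afp-only cells, and *Apoh* is near 0 throughout.

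Expressed as ratios, 6 members were at least 4-fold higher in Afp-only than in Klf1-only cells, where 17.2% of 9450 genes with at least 10 RPM in either lineage were higher and 8.97% lower. The same 6 members were at least 4-fold higher than in Pdgfra-only cells, against 7.18% of 10307 genes, with 15.5% lower. Against the unmarked cells they were at least 4-fold higher too, where 5.45% of 10563 genes were higher and 16.9% lower. The median log2 ratio of these 6 members was 10.61 against Klf1-only and 9.88 against Pdgfra-only cells. That of all genes was 0.00 and -0.19. Of the 6, only *Apoe* also reached 10 RPM in Klf1-only or Pdgfra-only cells. The others entered through the Afp-only cells, where they were high, so the median of the members was partly set by this filter. *Apoh* did not enter, and its log2 ratios were -2.18 and -3.01, on 20 reads in the Afp-only cells. The log2 ratio to Klf1-only cells was 13.57 for *Apom* (13.16 to 14.001), 13.17 for *Apoa2* (12.93 to 13.42), 8.79 for *Apoa1* (8.68 to 8.91), 5.22 for *Apoc1* (5.15 to 5.30) and 3.80 for *Apoe* (3.79 to 3.81). For *Apob*, which had 3 reads in the Klf1-only cells, it was 12.43 with an interval of 10.88 to 14.71. Against Pdgfra-only cells it was between 5.07 (*Apoe*) and 10.75 (*Apoa2*). The intervals cover counting error only, since amplified reads without molecular identifiers are not independent molecules.

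Within library pools, the direction was the same. Pool values were taken where at least 5 cells of both lineages were present, which left pools 2, 3, 4 and 5. The log2 ratio to Klf1-only cells ran from 12.70 to 14.27 over the 4 pools for *Apom*, from 12.10 to 14.20 for *Apoa2*, from 8.41 to 10.70 for *Apoa1*, from 5.01 to 7.09 for *Apoc1* and from 3.27 to 4.56 for *Apoe*. The spread over pools was thus wider than the counting intervals. Pool 2 held 33 of the 61 Afp-only cells.

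**Figure D2:**
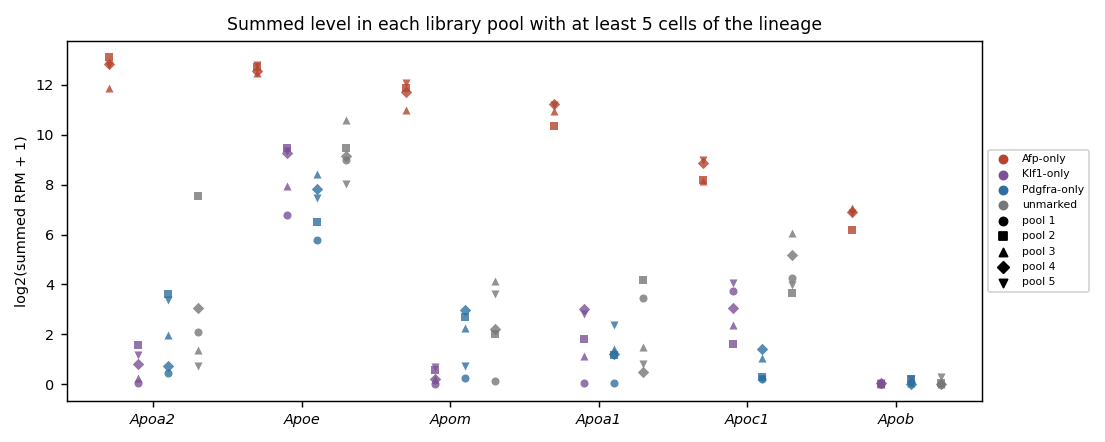
Summed level of 6 members in each library pool with at least 5 cells of a lineage, as log2(RPM + 1), with colour for the lineage and marker shape for the pool. In each of the 4 pools with a value, the Afp-only cells lie above the Klf1-only and the Pdgfra-only cells for all 6 members.

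*Apoh* had few reads in every lineage. It was at 0.265 RPM in Afp-only cells, 1.204 RPM in Klf1-only, 2.13 RPM in Pdgfra-only and 0.431 RPM in unmarked cells, and 1 of 61 Afp-only cells had more than 10 reads. Its highest cell was a Pdgfra-only E10.5 bulk cell with 271 reads, and the 1 E13.5 bulk cell with both *Afp* and *Klf1* was at 103.1 RPM. *Apoh* entered neither ratio, because it did not reach 10 RPM in any lineage.

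*Apoa4* and *Apoc2* were listed at 0 in every cell. In the GENCODE M21 annotation, 81.2% of the exonic bases of *Apoa4* lie inside the span of other annotated genes (*Gm47528* and *Gm10680*), and 99.4% of those of *Apoc2* lie inside *Gm44805*. The share was 10.7% for *Apoh* and 0% for the other 6 members. *Apoc4* (97.8%), next to *Apoc2*, was listed at 0 as well, and so were *Lcat* and *Angptl8*, whose exons lie wholly inside other genes. Of the 2007 protein-coding genes with exons at least 80% inside the span of other genes, as for *Apoa4* and *Apoc2*, 73.5% were listed at 0 in every cell. Of the 1492 with exons wholly inside, it was 90.8%, against 17.1% of the 14123 whose exons lie in no other gene. *Afp* itself, which set the lineage, lies 63.8% inside *Gm43449*. The counting of overlapping genes and the strand setting are not given in the sources used here. The table shows only that *Apoa4* and *Apoc2* are listed at 0, and no level is given for them.

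In the Afp-only cells, the 9 genes together took 1.90% of all reads, with a median of 1.89% per cell (0.00145 to 3.38). The share was 0.0474% in Klf1-only, 0.0204% in Pdgfra-only and 0.0817% in unmarked cells. *Apoa2* held 38.2% of these apolipoprotein reads, *Apoe* 33.8%, *Apom* 17.5%, *Apoa1* 8.40%, *Apoc1* 1.67% and *Apob* 0.488%. *Apoa2* was the highest member by reads in 32 cells and *Apoe* in the other 29. Per exon length, the order changed. *Apoa2* (537 bases) led at 13477 RPKM (reads per kilobase of exon and 1000000 reads; 7006 to 16393 over 4 pools), followed by *Apom* at 3270 RPKM (1992 to 4188) and *Apoe* at 2995 RPKM (2685 to 3288). *Apoa1* was at 1288 RPKM (1053 to 1921), *Apoc1* at 426 RPKM (379 to 683) and *Apob*, with 13934 exonic bases, at 6.63 RPKM (5.08 to 9.53). The pool ranges of *Apom* and *Apoe* overlapped, and those of the other neighbours in this order did not.

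The number of members with more than 10 reads separated the Afp-only cells from most others. It was 5 in 24 and 6 in 21 of the 61 Afp-only cells, with a median of 5 (1 to 6), and 53 cells (86.9%) had at least 4. The median was 1 in Klf1-only cells (0 to 3) and 0 in Pdgfra-only cells (0 to 3). In both lineages 0 cells had 4 or more, whereas 1 of 272 unmarked cells did. The Afp-only cells with only 1 or 2 members were 5 in number.

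Among the Afp-only cells, members differed in how even they were. The SD of log2(RPM + 1) over the 61 cells was 1.46 for *Apoe*, 2.70 for *Apoa2*, 2.97 for *Apom*, 3.39 for *Apoc1*, 3.70 for *Apob* and 3.81 for *Apoa1*. *Apoe* was at 0 reads in 0 cells, *Apoa2* and *Apom* in 2 each, *Apoa1* and *Apoc1* in 6 each and *Apob* in 35. Over cells, Pearson's r of log2(RPM + 1) was highest for *Apoa2* with *Apoe* (0.85), *Apoa2* with *Apom* (0.74) and *Apoa1* with *Apom* (0.72), and lowest for *Apob* with *Apoe* (0.16). The median over the 15 pairs was 0.44, and the median Spearman's rho was 0.27. The points share depth and library pools, and much of r rested on few cells. Without the 5 Afp-only cells with 1 or 2 members above 10 reads, the median r was 0.090.

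*Apob* followed the *Afp* level of the cell. Of the 30 cells with the highest *Afp* level, 20 had more than 10 *Apob* reads (66.7%, 47.2 to 82.7), and of the other 31 cells 2 had (6.45%, 0.791 to 21.4). The summed *Apob* level was 149.3 RPM in the former and 38.7 RPM in the latter. *Apoa1* behaved in a similar way, at 2217 and 1001 RPM, and exceeded 10 reads in 30 of 30 and 21 of 31 cells. For *Apoa2* the levels were closer, at 7521 and 6969 RPM. The cells with more *Afp* also had more detected genes (median 6650.5 against 4814) at fewer reads (median 1192644 against 1274726), and the part of detection in these differences was not tested. Pearson's r of *Apob* with the number of detected genes was 0.51 over the 61 cells. *Apob* cells were found in all 5 pools, in 5 of the 33 Afp-only cells of pool 2 and in 7 of the 9 of pool 5.

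**Figure D3:**
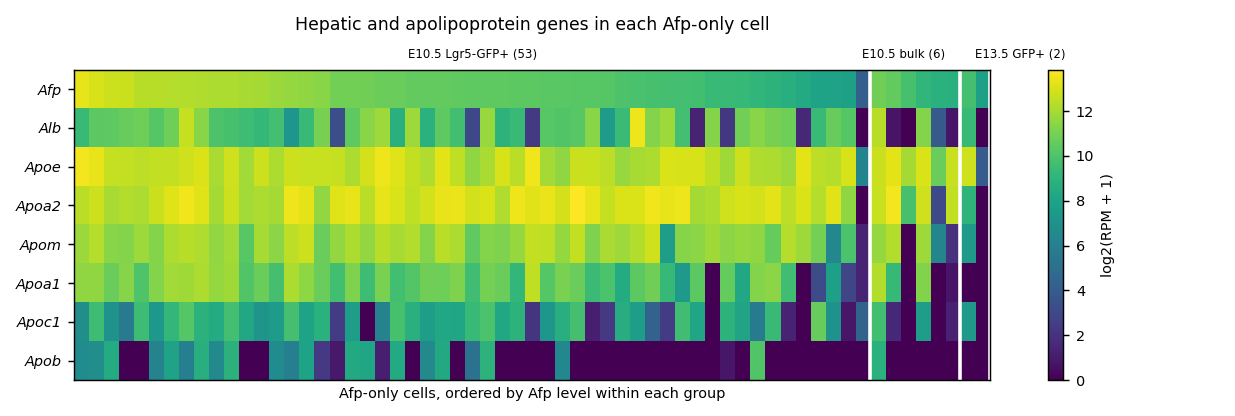
Heat map of log2(RPM + 1) of *Afp*, *Alb* and 6 apolipoprotein genes (vertical) in the 61 Afp-only cells (horizontal), ordered by *Afp* level within E10.5 Lgr5-GFP+ (53), E10.5 bulk (6) and E13.5 Lgr5-GFP+ cells (2). *Apoe*, *Apoa2* and *Apom* are high in nearly all cells, and *Apob* is found mostly at the end with more *Afp*.

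The genes most like the members over the Afp-only cells were ranked by Pearson's r with the mean of the 6 standardised members, among 8450 other genes with at least 10 RPM. *Rbp4*, the plasma retinol carrier, came first (r = 0.85), followed by *Fabp5*, a fatty acid-binding protein (0.78), *Fgb*, a fibrinogen chain (0.75), *Serpina6*, the corticosteroid-binding globulin (0.71), and *Glud1*, glutamate dehydrogenase (0.68). *Afp* was the 6th and *Alb* the 24th. Without the same 5 cells, r fell to between 0.29 (*Glud1*) and 0.67 (*Fabp5*) for these 5 genes.

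The sort made a large difference over all E10.5 cells and a small one within the Afp-only cells. Over all E10.5 cells, all 6 members were at least 4-fold higher in Lgr5-GFP+ than in bulk cells, against 2.96% of 10210 genes (2.74% were at least 4-fold lower, and 0 members). *Apoa2* was at 2030 and 185.5 RPM, *Apom* at 938 and 65.99 RPM, *Apoa1* at 441 and 44.3 RPM, *Apob* at 26.8 and 1.78 RPM, *Apoc1* at 95.2 and 7.34 RPM and *Apoe* at 1877 and 459 RPM. The medians over cells were 0 in both groups for *Apoa1*, *Apob* and *Apoc1*, and 53 of the Lgr5-GFP+ and 6 of the bulk cells were Afp-only. Without pool 2, 5 members passed 4-fold. Within pools, each of these 6 members was higher in the Lgr5-GFP+ cells in 5 of 5 pools, with log2 ratios of 1.01 to 3.06 for *Apoe*, 2.16 to 11.10 for *Apoa2* and 0.0089 to 7.10 for *Apoa1*. In the E10.5 Afp-only cells alone, 0 members differed by 4-fold, whereas 27.6% of 8992 genes were at least 4-fold higher in the Lgr5-GFP+ cells and 10% lower. *Apoe* was at 6494 RPM in 53 Lgr5-GFP+ cells (75.03 to 12511, median 6155) and at 6317 RPM in 6 bulk cells (1668 to 9900, median 6637), and the ranges overlapped throughout. *Apoa2* was at 7677 RPM (0 to 14716, median 7792) and 5617 RPM (7.31 to 12218, median 6376). The log2 ratio was 1.40 for *Apoc1*, 0.91 for *Apob*, 0.85 for *Apom*, 0.58 for *Apoa1*, 0.45 for *Apoa2* and 0.04 for *Apoe*. The directions were not stable, since with a marker threshold of more than 0 reads 5 of the 6 members turned lower in the Lgr5-GFP+ cells (-0.45 for *Apoa1* to -0.14 for *Apoa2*). The single cells overlapped for each of these genes, and 6 bulk cells set the comparison. Without pool 3, 2 members passed 4-fold. Afp-only cells with more than 10 reads of *Lgr5*, the R-spondin receptor gene that carries the reporter, had 489 RPM of *Apoc1* (23 cells), against 160 RPM in the 23 cells with 0 *Lgr5* reads. *Apoe* was at 6479 and 5540 RPM in the same cells. In the 15 Afp-only cells with 1 to 10 *Lgr5* reads, *Apoc1* was at 309 RPM and *Apoe* at 7531 RPM, above both other sets. *Apob* was at 109.8, 38.2 and 114.2 RPM in cells with more than 10, 1 to 10 and 0 *Lgr5* reads.

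Only 2 Afp-only cells came from E13.5, both Lgr5-GFP+, and they were unlike each other. The first, with 224 *Afp* reads, had 14 *Apoe* reads and 0 reads of the other 8 members and of *Alb*. The second, the cell with 6647 *C1qb* reads, had 1093 *Afp*, 827 *Alb*, 8964 *Apoe*, 629 *Apoa2*, 217 *Apom*, 215 *Apoc1* and 0 *Apoa1* and *Apob* reads. The E10.5 level was higher than the sum of the 2 cells by at least 4-fold for 4 members, but so was that of 66.1% of 8839 genes, with 12.3% lower. The E10.5 cells were at 7446 RPM of *Apoa2* against 285 RPM, and at 3409 RPM of *Apom* against 98.5 RPM, whereas *Apoe* was at 6474 and 4075 RPM. Without the *C1qb*-rich cell, the log2 ratio of *Apoe* was 8.80 instead of 0.67, against 1 remaining cell. In the mean of single-cell levels, 2 of the members passed 4-fold. The ratios of *Apoa1* and *Apob*, at 0 reads in these E13.5 cells, were not computed there. The 1 further E13.5 cell with *Afp*, a bulk cell with 618 *Klf1* reads, had 1659 *Apoa1*, 1312 *Apoa2*, 1917 *Apoe*, 328 *Apom*, 241 *Apoc1* and 0 *Apob* reads. The E13.5 values in *Afp*-positive cells thus rest on 3 cells.

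Over all E13.5 cells, *Apoe* was at 1579 RPM in Lgr5-GFP+ and 586 RPM in bulk cells, and *Apoc1* at 71.7 and 17.2 RPM. *Apoa2* was at 14.2 and 8.21 RPM, and *Apom* at 5.98 and 1.96 RPM. Each of these genes was higher in the Lgr5-GFP+ cells in 4 of 5 pools. In pool 2, with 27 Lgr5-GFP+ cells, *Apoe* (log2 ratio -3.15) and *Apoc1* (-4.78) were lower. In pool 5, with 7 Lgr5-GFP+ cells, *Apoa2* (-4.83) and *Apom* (-3.86) were lower. In sum, *Apoa1* went the other way, at 0.959 RPM in Lgr5-GFP+ and 11.1 RPM in bulk cells, and at 1.72 RPM in bulk cells without the 1 cell that had *Afp* and *Klf1*. This direction rested on few cells. Of the 1962 *Apoa1* reads of the bulk cells, that cell held 1659 and 1 Klf1-only cell of pool 4 held 258. In 3 of 5 pools *Apoa1* was higher in the Lgr5-GFP+ cells. Of 10254 genes, 23.1% were at least 4-fold higher in the E13.5 Lgr5-GFP+ cells and 7.17% at least 4-fold lower.

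Outside the 66 cells with more than 10 *Afp* reads, low counts of the hepatic members followed the library indices. Each library carries an i7 and an i5 index, and 259 of the other 587 cells shared neither with any Afp-only cell of their pool. In 70 cells both indices were shared, each with at least 1 Afp-only cell, and in the rest i5 or i7 alone. At least 1 *Apoa2* read was found in 11.2% of the cells that shared neither (7.63 to 15.7), 60.4% of those that shared i5 (52.2 to 68.2), 66.3% of those that shared i7 (56.4 to 75.3) and 91.4% of those that shared both (82.3 to 96.8). *Apom* was found in 6.18%, 44.2%, 46.2% and 74.3% of cells in the same order, and *Apoa1* in 10.04%, 35.7%, 31.7% and 58.6%. *Afp* itself was found in 4.25%, 42.2%, 39.4% and 72.9% of these cells. Median reads per cell were similar, from 1142260 to 1242158. The order of *Apoa2* was also seen within the Pdgfra-only cells (12.2%, 67.7%, 70.7% and 89.7%) and within E10.5 bulk cells, where it was found in 3 of 80 cells that shared neither and in 28 of 28 that shared both. The cause was not tested.

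*Apoe* reads were frequent whatever the indices. At least 1 *Apoe* read was found in 84.6%, 95.5%, 88.5% and 98.6% of the cells that shared neither, i5, i7 and both, with medians of 5, 9, 5 and 17.5 reads. In E10.5 bulk cells the share went from 77.5% with neither to 100% with both. Summed levels, which a few cells can set, were in another order. *Apoe* was at 527, 686, 130 and 696 RPM, *Apoa1* at 4.40, 1.48, 6.75 and 10.75 RPM, and *Apoc1* at 24.1, 13.47, 2.91 and 8.44 RPM. *Apob*, the least abundant in the Afp-only cells of the 6, was found in 2.32% to 4.29% of cells. In the 259 cells that shared neither index, *Apom* was at 0.0647 RPM, against 4.01 RPM in all 587, and *Apoa2* at 1.36 RPM against 25.04 RPM. Most of the latter came from 2 unmarked E10.5 Lgr5-GFP+ cells of pool 2 with 8187 and 7012 *Apoa2* reads, which had 4 and 2 *Afp* reads. The latter of these cells also had 5778 *Alb* and 12953 *Apoe* reads. Without these 2 cells, *Apoa2* was at 8.22 RPM in the cells that shared both indices (median 5 reads, highest 72).

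**Figure D4:**
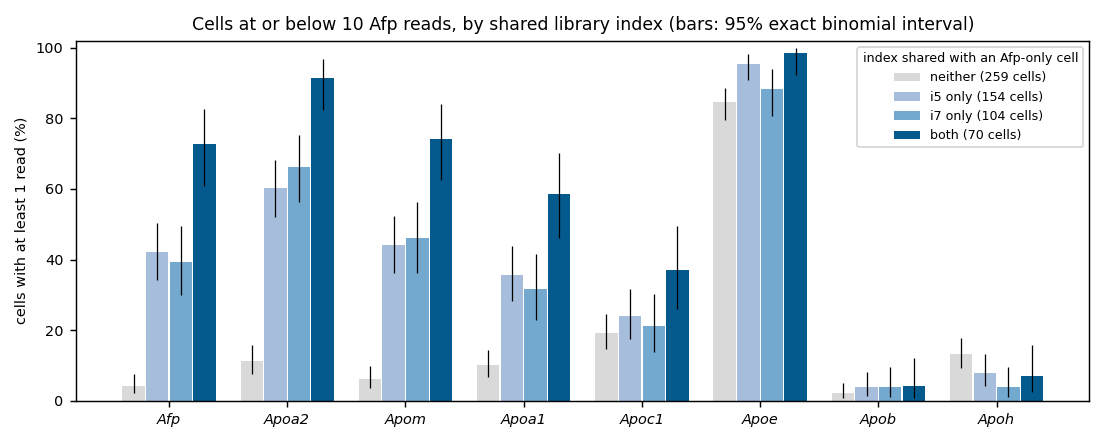
Share of cells with at least 1 read of a gene (vertical axis, percent, with exact binomial 95% intervals) among the 587 cells at or below 10 *Afp* reads, by the library index they share with an Afp-only cell of their pool. *Apoa2* goes from 11.2% with no shared index to 91.4% with both, and *Apoe* lies between 84.6% and 98.6%.

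*Apoe* was high in cells with leukocyte or endothelial markers, and *Apoc1* in those with leukocyte markers. These cells were chosen, after the values had been seen, as those at or below 10 *Afp* reads with more than 10 reads of at least 3 genes of a marker list. The 15 cells with leukocyte markers, all from E13.5, had 3826 RPM of *Apoe* (3.59 to 15704, median 2742) and 360 RPM of *Apoc1* (0 to 2409, median 78.4). More than 10 *Apoe* reads were found in 14 and more than 10 *Apoc1* reads in 11 of them, and *Apoa1*, *Apoa2* and *Apom* had more than 10 reads in 0. The cell highest in both had 19319 *Apoe*, 2964 *Apoc1* and 10826 *C1qb* reads, a complement gene of macrophages. The 29 cells with endothelial markers had 2049 RPM of *Apoe* and 30.03 RPM of *Apoc1*, with 27 of 29 cells above 10 *Apoe* reads and 4 above 10 *Apoc1* reads. In the 21 of these cells that met no other list, *Apoe* was at 2576 RPM and *Apoc1* at 16.6 RPM. Of all 29 cells with endothelial markers, the 9 from E10.5 were at 979 RPM and the 20 from E13.5 at 2569 RPM of *Apoe*. The sort gated against CD45 and CD31, proteins of leukocytes and of endothelial cells.

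Taken as whole lists, erythroid and mesenchymal cells had less *Apoe*, in some cells only. The cells with erythroid markers were at 439 RPM (0 to 4897, median 53.8), and the share above 10 reads was 54.8%. By stage, 34 of 44 E10.5 cells (77.3%) and 68 E13.5 cells (47.9%) exceeded 10 reads, at summed levels of 461 and 432 RPM. The 240 cells with mesenchymal markers were at 185.7 RPM (0 to 5457, median 4.30), with 37.5% above 10 reads. At E10.5 they were at 153.96 RPM and at E13.5, in 28 cells, at 445 RPM. The 7 Pdgfra-only E13.5 Lgr5-GFP+ cells were higher, at 1747 RPM (7.16 to 3933, median 2429), and 6 of them exceeded 10 *Apoe* reads. *Apoc1* was at 14.96 RPM in the erythroid and 0.930 RPM in the mesenchymal cells. In the 170 erythroid cells that met no other list it was at 9.33 RPM, and the highest erythroid cell, at 1111 RPM, also had 2419 *C1qb* and 1530 *Kdr* reads. *Apoe* had more than 10 reads also in 48 cells that met no list.

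**Figure D5:**
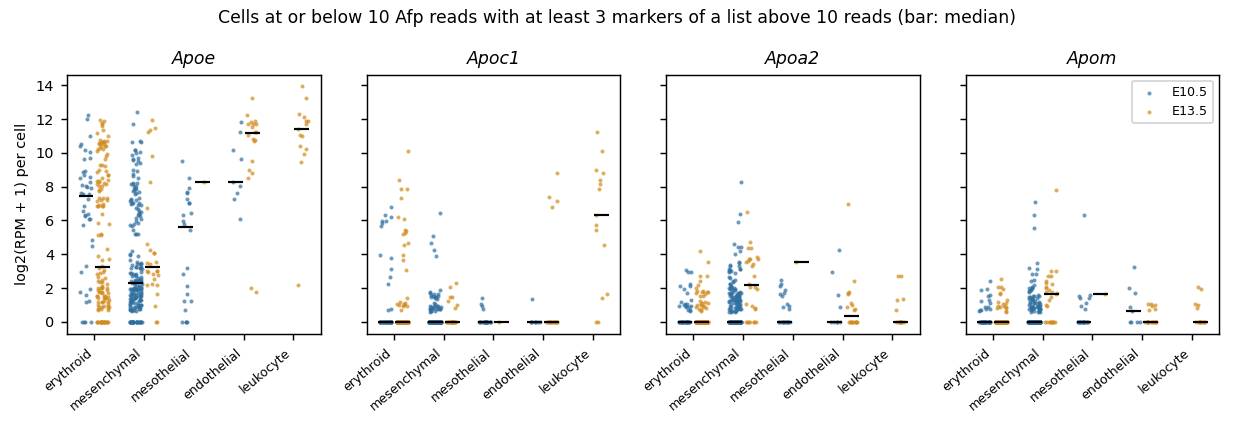
Level of *Apoe*, *Apoc1*, *Apoa2* and *Apom* as log2(RPM + 1) in each cell at or below 10 *Afp* reads that had at least 3 markers of a list, by list and stage (bars are medians; a cell may meet several lists). *Apoe* is high in nearly all endothelial and leukocyte cells, *Apoc1* in leukocyte cells, and the medians of *Apoa2* and *Apom* lie low in each list.

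*Apom* reads were also seen in a few epithelial cells with little *Afp* and *Alb*. Of 25 cells at or below 10 *Afp* reads with more than 100 reads of *Epcam*, an epithelial adhesion gene, 18 were E10.5 Lgr5-GFP+, and 6 had more than 10 *Apom* reads. The 5 unmarked cells highest in *Apom* were at 425, 235, 225, 196.1 and 147.5 RPM. Each had more than 100 *Epcam* reads, 0 to 4 *Afp* reads and 0 or 1 *Alb* read. All 5 shared i5, i7 or both with an Afp-only cell of their pool, and 0 of the 259 cells that shared neither index had more than 10 *Apom* reads. This threshold was chosen after the values had been seen.

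The other genes of lipoprotein metabolism were taken from lists made by function. Of 10 other apolipoproteins, 4 reached 10 RPM in the comparison with Klf1-only cells. All 4 were at least 4-fold higher in Afp-only cells (17.2% of all genes). Against Pdgfra-only cells, 6 reached it, 3 were higher (7.18% of all genes) and 2 were lower (15.5% of all genes). The 3 that were higher in each comparison were *Apof* at 80.5 RPM, *Apoc3* at 26.4 RPM and *Apon* at 18.4 RPM. *Clu* was at 84.8 RPM, against 2.11 RPM in Klf1-only and 49.5 RPM in Pdgfra-only cells. *Apoa5* was at 0.781 RPM and *Saa4* at 2.81 RPM. *Apod* was at 0.132 RPM, and *Saa1* and *Saa2* were higher in Pdgfra-only cells (15.1 and 12.5 RPM) than in Afp-only cells (0.0662 and 0.0397 RPM).

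In the list of lipoprotein assembly and secretion, 11 of 13 genes reached 10 RPM in either lineage in each comparison. Of these, 5 were at least 4-fold higher than in Klf1-only cells (17.2% of all genes) and 4 than in Pdgfra-only cells (7.18% of all genes), and 0 were lower. *Mttp*, which loads lipid on apolipoprotein B, was at 170 RPM in Afp-only, 3.90 RPM in Klf1-only and 6.75 RPM in Pdgfra-only cells. *A1cf*, a cofactor of *Apob* mRNA editing, was at 220, 0.0502 and 0.0869 RPM. *Dgat2*, which makes triglyceride, was at 101.6, 0.334 and 8.92 RPM, and *Cideb*, which acts in particle lipidation, at 20.97, 0.401 and 0.825 RPM. Of 13 lipases and remodelling genes, 6 reached 10 RPM against Klf1-only and 7 against Pdgfra-only cells, and 2 were higher in each comparison, against the same 17.2% and 7.18%. These were *Lpl*, the lipase of peripheral tissues and of fetal liver, at 531 RPM against 8.26 and 33.5 RPM, and *Lipc*, the hepatic lipase, at 32.2 RPM against 0.357 and 2.50 RPM. Of 16 receptors and transporters, 11 reached 10 RPM in each comparison, and 7 were higher than in Klf1-only (17.2% of all genes) and 2 than in Pdgfra-only cells (7.18% of all genes). *Abca1*, which exports lipid to apolipoprotein A-I, was at 176.3 RPM (7.49 and 9.75 RPM in the others).

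Regulators of hepatic apolipoprotein genes were often past 4-fold. Of the 22 genes, 16 reached 10 RPM in the comparison with Klf1-only cells, and 13 of these were higher in Afp-only cells (17.2% of all genes). Against Pdgfra-only cells, 17 reached it, 12 were higher (7.18% of all genes) and 1, *Nr2f1*, was lower (15.5% of all genes). *Hnf4a* was at 156.7 RPM in Afp-only, 0.0279 RPM in Klf1-only and 0.0380 RPM in Pdgfra-only cells. *Foxa1*, *Foxa2* and *Foxa3* were at 42.02, 123.6 and 141.8 RPM, *Prox1* at 213 RPM, *Nr5a2* at 158.4 RPM and *Cebpa* at 84.2 RPM. The nuclear receptors *Nr1h3* and *Ppara* were at 45.1 and 10.6 RPM, the coactivator *Ppargc1a* at 18.2 RPM and *Creb3l3* at 29.04 RPM. Their likeness to the members over the 61 cells was weak, with r of 0.43 for *Hnf4a* and for *Foxa3* and 0.39 for *Mttp*.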

How the data were processed

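Single cells of E10.5 and E13.5 mouse liver were sequenced with the Smart-seq2 protocol. The authors aligned single-end reads with STAR (2.6.0c) to GRCm38.p6 and counted uniquely aligned reads per gene with featureCounts of Subread (1.6.2), per the labels and the methods, and the deposited counts are whole numbers per gene and cell, without normalisation. Scanpy (1.3.3) is also named. A further deposited table, of normalised values for selected genes, was not used. All 653 cells were used, with 0 columns of per-sample values left out, and group, day and pool were taken from the labels.

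The 9 genes and all lists were chosen with earlier results of these data known. Of 54195 gene IDs, 54042 were named with a reference table of gene symbols. Levels are RPM, the reads of a gene summed over cells, per 1000000 reads on all genes. RPKM uses the union of exons of GENCODE M21, a later release than the Ensembl annotation the authors counted with. Depth per cell was 463347 to 2279700 reads (median 1192740), which limits precision. Intervals are exact Poisson, exact Clopper-Pearson or, for ratios, exact conditional binomial intervals at 95%, and cover counting error only. An arm with 0 reads was set to 3 reads for a bound. A gene was called past a 4-fold ratio only with at least 10 RPM in 1 of the lineages. Pool values needed at least 5 cells. Correlations used log2(RPM + 1). Marker thresholds, thinning to 100000 reads, scaling, weighting of cells and pools were varied. Named genes were the 9 members, list genes at least 4-fold higher in Afp-only than in both other lineages with at least 10 RPM, the other apolipoproteins, and the 5 genes most like the members. Some genes named by this rule are not reported here. Cells with several markers were set apart. The ratio and the ranking were tested on simulated data. Python (3.11.15) with pandas (2.3.3), NumPy (2.4.6) and SciPy (1.17.1) was used.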

Additional observations from a re-analysis of the deposited data

Results flagged for a closer look

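In summed reads, *Apoa1* moved in opposite directions with the sort at the 2 stages, but the E13.5 bulk level rested on few cells. The log2 ratio of Lgr5-GFP+ to bulk cells was 3.32 over all E10.5 cells and -3.53 over all E13.5 cells, and the difference was not tested, since each group is 1 sample. At E13.5, 1 bulk cell with *Afp* and *Klf1* reads held 1659 of the 1962 *Apoa1* reads of the bulk group, and 1 Klf1-only bulk cell of pool 4 held 258. In 3 of 5 pools *Apoa1* was higher in Lgr5-GFP+ cells. Without the cell with *Afp* and *Klf1*, bulk cells were at 1.72 RPM against 0.959 RPM in Lgr5-GFP+ cells. That level still includes the 258 reads of the Klf1-only cell.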

How the results depend on the processing

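The 6 members stayed at least 4-fold higher in Afp-only than in Klf1-only and in Pdgfra-only cells under every alternative run, and all 78 alternative log2 ratios of each comparison kept their sign (3.06 to 14.07 and 2.99 to 11.45). The count for Lgr5-GFP+ against bulk over all E10.5 cells was 6, and 5 without pool 2. The count for E10.5 against E13.5 in Afp-only cells was 4, ran from 4 to 6 with 1 pool left out, and went to 2 with the mean of single-cell RPM, where 2 ratios against 0 were not computed. Within E10.5 Afp-only cells, the count of members at least 4-fold higher in Lgr5-GFP+ cells was 0, and ran from 0 to 2 with 1 pool left out (2 without pool 3) and to 3 without pools 3, 4 and 5. The sign of its log2 ratios was kept in 64 of 72 alternative values (-0.45 to 8.02). Over all E13.5 cells it was 1, and ran from 0 to 2 with 1 pool left out (2 without pool 2 or pool 5, 0 without pool 3). *Apob* over all E13.5 cells reversed after thinning, to -0.59 from 4.72, on 14 and 1 reads. The median correlation of 0.44 was 0.27 as Spearman's rho, 0.38 to 0.66 with 1 pool left out (0.66 without pool 2) and 0.090 without the 5 low cells, an alternative chosen after seeing the data. *Apom* outside the cells over 10 *Afp* reads was 4.01 RPM and 0.0647 RPM in cells that share no index. Leaving out the C1q-rich cell and the 2 cells high in *Apoa2* was also chosen after seeing the data. No paired analysis was possible because the labels give no replicate numbers and no test was run. The 5 pools hold all 4 groups, and sort ratios within them were computed after seeing the data. With 61 Afp-only cells, 59 of them from E10.5, and no named animals, the spread between embryos is unknown.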
